A study of Mus musculus with 135 samples.

Results

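The cytosolic ribosomal protein genes encode the proteins of the small and large subunits of the ribosome outside the mitochondrion. They were taken from the deposited read count table as every gene whose symbol starts with Rpl or Rps followed by a digit, together with Rpsa, Rplp0, Rplp1 and Rplp2, without the Rps6k kinases, entries named as pseudogenes and entries that join several genes. This gave 85 of 15181 genes, 34 named for the small and 51 for the large subunit. Of these, 77 are core ribosomal proteins (31 small, 46 large), 7 are paralogs of a core gene (Rpl3l, Rpl7l1, Rpl22l1, Rpl36al, Rpl39l, Rps4l and Rps27l), and 1, Rps19bp1, matches by its symbol only and encodes a binding partner of RPS19.

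The cells were single haematopoietic stem cells (HSCs) sorted from bone marrow of C57BL/6 mice with a Vwf-eGFP reporter, which both ages carried, as viable lineage-negative, Sca-1+ c-Kit+ CD150+ CD48- cells. Young cells came from a mouse of 2 to 3 months and old cells from a mouse of 20 to 25 months, with 1 mouse per age. Of 61 young and 74 old cells, 52 and 62 met the quality limits of the study and were used first. The contrast of old with young therefore lacks replicates, so that it was described without p-values. An SD is the spread over cells of 1 mouse.

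In these cells between 273236 and 5688706 reads were counted on genes in the young and between 276316 and 4086659 in the old cells, with medians of 2798990 and 2116024. All 9 HSC marker genes were detected. Kit was on in 94.2% of the young and 98.4% of the old cells, Fgd5 in 11.5% and 22.6% and Tek in 25% and 17.7%, and Slamf1, which encodes the sorting marker CD150, was on in 17.3% and 24.2%. Cd48 and Flt3, low in the sorted gate, were on in at most 9.62% of young and 3.23% of old cells. Of the marker genes chosen, 1 of 5 for B cells (Cd79b), 2 of 4 for T cells and 5 of 6 for granulocytes were among the counted genes. For macrophages 3 of 6 and for erythroid cells 2 of 5 were among them. Each of these groups had a median summed level of at most 2.15 CPM (reads per 1000000 counted reads), with Hba-a1 at 0 in all cells used. Single cells reached 1108 CPM for the B-cell gene and 1324 CPM for the macrophage genes. Cd79b was on in 23.1% and 25.8% and Cd3d in 30.8% and 25.8% of young and old cells. The median sum of 5 megakaryocyte genes was 1.07 CPM in young and 18 CPM in old cells. In mean log2(CPM + 1), 2 of these 5 genes were higher and 3 lower in old cells, with a median difference of -0.03. The part of these genes in the results below was not tested. Sex-linked genes separated the mice, with at least 1 of 4 Y-linked genes on in 2 young and 58 old cells. The labels name no capture run. Age, mouse and any difference in how the cells of each age were captured cannot be told apart. No 2 cells held identical counts, and 46 position codes in the cell names occurred at both ages.

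Each ribosomal protein is made in step with the others, since an assembled subunit takes 1 copy of nearly all of them and the surplus is degraded. Most of their messenger RNAs begin with a 5' terminal oligopyrimidine (TOP) tract, through which mTORC1 and the RNA-binding protein LARP1 set their translation. HSCs are known for a low rate of protein synthesis compared with their progeny, and loss of 1 copy of several of these genes causes Diamond-Blackfan anaemia, a failure of red cell production.

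The start sites of the genes were searched for such a tract. RefSeq promoter sequence (GRCm38) was found for 64 of the 85 genes. In the 10 bases on either side of an annotated start, on the sense strand, a C followed by at least 6 bases that were each C or T began in 30 of these 64 (46.9%), against 13.6% of all 27025 genes with a promoter sequence, 3 of 10 other genes known for TOP transcripts, 10.3% of 68 mitochondrial ribosomal protein genes and 13.2% of 76 genes outside the family that were counted at least as highly as its lowest quartile. The windows below run from 10 bases before the start to 20 from the start onwards, 5' to 3', with the tract in capitals. They show a plain tract in a small and in a large subunit gene, then the pairs and the gene whose levels are described below.

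Rps6: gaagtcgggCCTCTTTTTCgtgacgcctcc
Rpl35: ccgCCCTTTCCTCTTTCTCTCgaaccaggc
Rpl22: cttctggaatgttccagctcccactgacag
Rpl22l1: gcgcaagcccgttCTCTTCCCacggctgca
Rps27: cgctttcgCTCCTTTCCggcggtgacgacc
Rps27l: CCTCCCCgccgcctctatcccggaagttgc
Rps15: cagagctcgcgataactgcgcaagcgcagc

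On GRCm38 these windows are chr4:86857348-86857377 (minus strand) for Rps6, chr2:39005112-39005141 (minus) for Rpl35, chr4:152324426-152324455 (plus) for Rpl22, chr3:28805498-28805527 (plus) for Rpl22l1, chr3:90213629-90213658 (minus) for Rps27, chr9:66946076-66946105 (plus) for Rps27l and chr10:80292421-80292450 (plus) for Rps15. Of the pair Rpl22 and Rpl22l1, the paralog alone had a tract in this window, while both Rps27 and Rps27l had one. That of Rps27 spanned the annotated start, whereas that of Rps27l ended before it. No tract was found in the window of Rps15. A missing match says only that these letters were not in the window of the annotated start, and a match need not lie at the first base of the transcript. The 30 genes with a tract differed between old and young cells by a median of -0.04 on the log2 scale and the 34 without by -0.03.

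All 85 genes had at least 1 read, and 75 of them (73 core genes, Rpl22l1 and Rpl7l1) were expressed in at least 90% of cells, a cell being counted as expressing where log2(CPM + 1) was above 2. The genes compared by level per length, in mean CPM per kb of transcript over the young and old cells together, spanned from 1.48 to 3861 CPM per kb among the core genes, with a median of 993. The median was 1030 CPM per kb for the 31 small and 893 for the 46 large subunit genes.

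The 8 highest genes per length were Rps18 (3861 CPM per kb), Rps19 (3631), Rpl3 and Rps14 (3310 each), Rps6 (3223), Rpl41 (2911), Rpl9 (2739) and Rps3a1 (2598). RPS19 is the protein most often affected in Diamond-Blackfan anaemia, RPS14 is lost in the 5q- syndrome, RPS6 is the phosphorylation target of the S6 kinases, RPL3 lies close to the peptidyl transferase centre and RPL41 is the smallest ribosomal protein. Rps18 was read at a level of 10.95 ± 0.63 (SD, n = 52 cells) in young and 10.99 ± 0.49 (n = 62) in old cells, where level means the mean over cells of log2(CPM + 1). It ranged over 9.26 to 12.12 in young cells with a median of 10.91, and over 9.72 to 11.96 in old cells with a median of 11.01. Rps14 had the smallest spread in old cells among the highly counted genes, with an SD of 0.41.

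At the other end stood 8 genes below 15 CPM per kb, 4 of which are core ribosomal proteins. Rpl30 (1.48 CPM per kb), Rpl26 (1.92), Rpl34 (8.53) and Rps27 (14.7) were expressed in 9.65%, 5.26%, 32.5% and 18.4% of all cells used, although the ribosome contains their products as it does the others. The remaining 4 were Rps19bp1 (9.04), Rps4l (8.23), Rpl3l (0.342) and Rpl39l (0.0184 CPM per kb), Rpl3l being known from striated muscle and Rpl39l from testis. Rps15a and Rps20 also came low per length, at 74.4 and 172 CPM per kb, on transcript models of 5179 and 3706 bases. Per kb of coding sequence they stood at rank 64 and rank 36 of the 84 genes with a coding length.

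Many ribosomal protein genes have processed pseudogenes, and the counting kept 1 alignment for each read. Of all 51-base stretches of a transcript, the length of a read, a median of 50.3% in the core genes (range 0 to 98.6%) occurred exactly in another annotated gene, against a median of 0% in the 77 mitochondrial ribosomal protein genes (highest 76.3%). The share was 98.6% for Rps27, 71% for Rpl26, 47.5% for Rpl30 and 37.6% for Rpl34. It was 80% or more in 14 core genes, and 13 of these were expressed in at least 90% of cells, among them Rpl3 with 85.5% and Rps18 with 86.5%. Counts of such genes are uncertain for this reason, and what part shared sequence plays in the low counts was not tested. Some copies were themselves in the table, with Gm5148 at 37.9% of the count of Rps23, Gm13826 at 35.6% of that of Rpl37, Gm15421 at 32.2% of that of Rpl22l1 and Gm12191 at 137% of that of Rpl30.

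**Figure D1:**
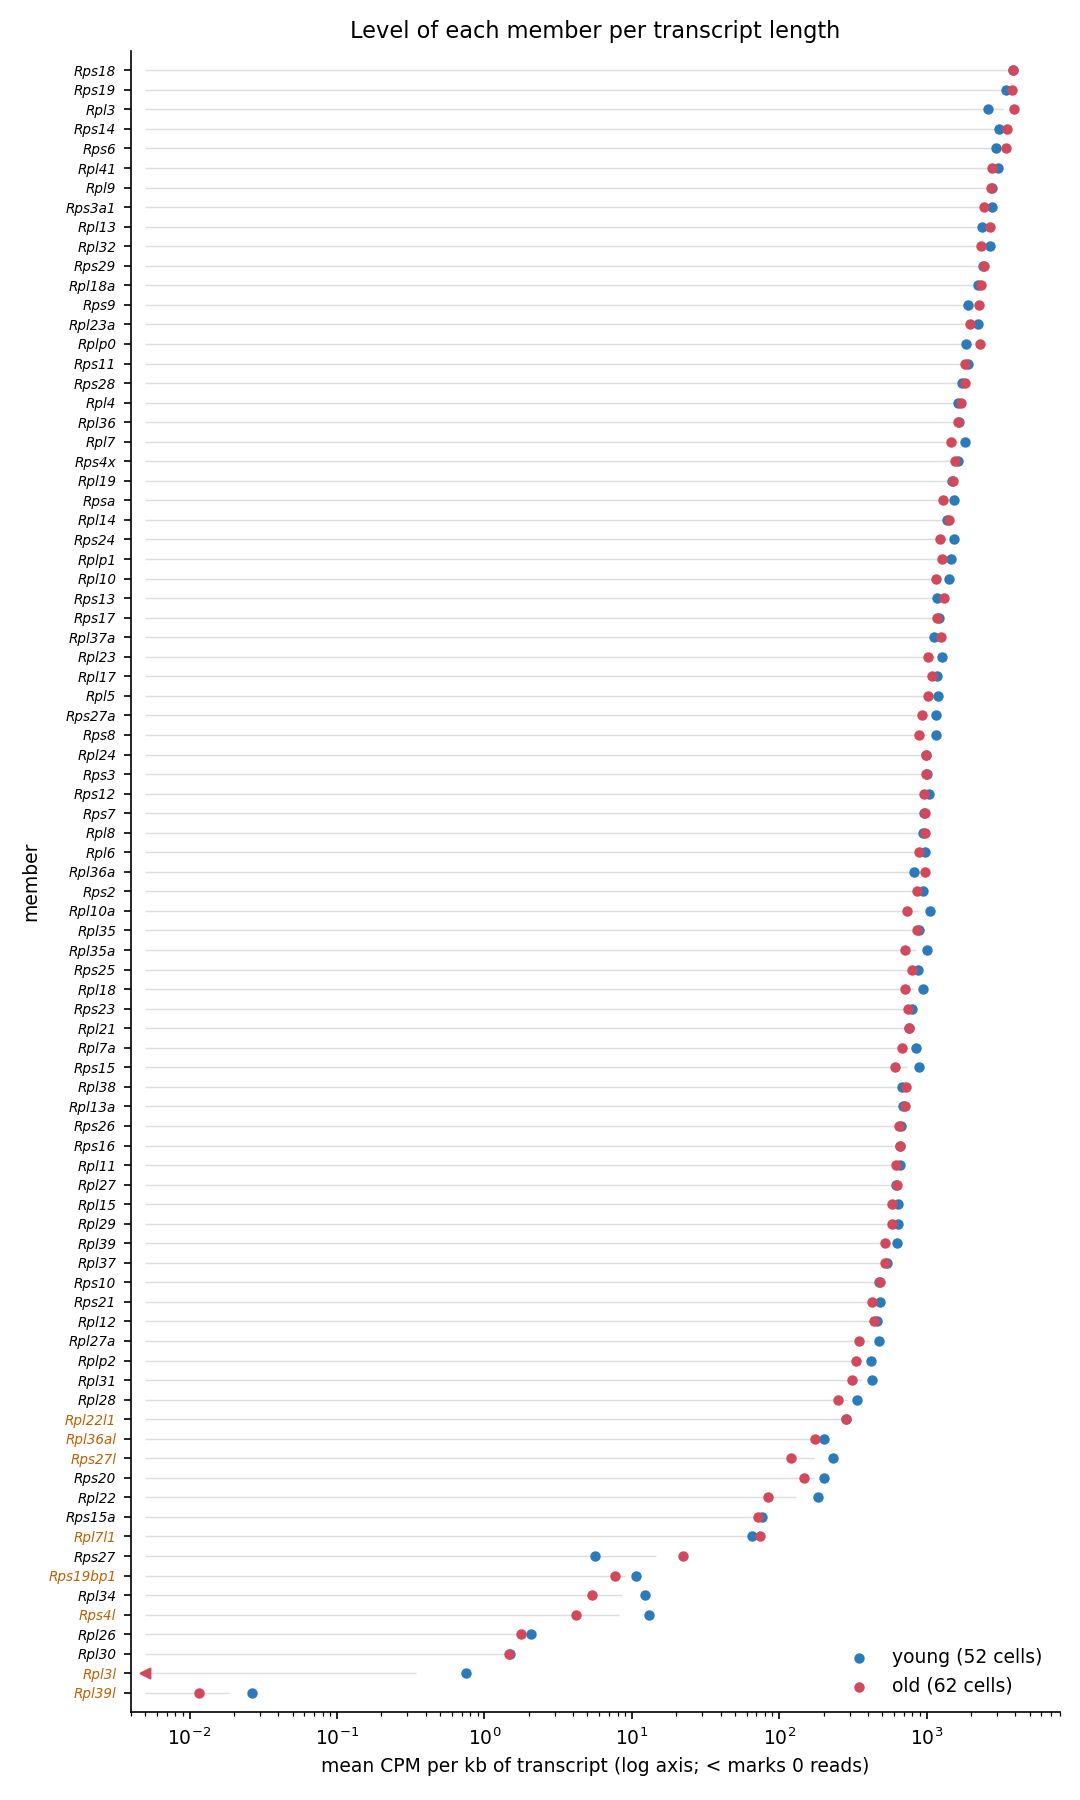
Mean CPM per kb of transcript (log axis) of 84 of the 85 genes in the 52 young (blue) and 62 old (red) cells, ordered by the mean over both, with the paralogs and Rps19bp1 in orange letters and a triangle for 0 reads. The core genes have a median of 993 CPM per kb with both ages close together in most, and Rps27, Rpl34, Rpl26 and Rpl30 lie at the foot of the order at 14.7 or less.

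Together the 85 genes took a similar part of the counted reads at both ages. The share per cell ran from 4.94% to 13.5% in young cells, with a median of 8.14% (SD 1.81 percentage points, n = 52 cells), and from 4.58% to 12.2% in old cells, with a median of 8.26% (SD 1.65, n = 62 cells). The 2 ranges overlapped over nearly their whole length, and the highest cell had 2.74 times the share of the lowest in the young and 2.67 times in the old cells. Small subunit genes took a median of 3.37% and 3.53%, and large subunit genes 4.75% and 4.70%. In the 9 young and 12 old cells that did not meet the quality limits the medians for all 85 genes were 10.4% and 10.2%.

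Small and large subunit genes varied together from cell to cell. Across cells, which share 1 mouse at each age, the 2 shares had a Pearson r of 0.86 in young (n = 52) and 0.88 in old cells (n = 62). The ratio of small to large subunit reads had a median of 0.737 and 0.728. The share of all 85 genes also varied with that of 16 other transcripts known for TOP tracts, such as Eef1a1 and Tpt1 (r 0.48 and 0.47), but hardly with that of 77 mitochondrial ribosomal protein genes (0.04 and 0.00) or 41 ribosome biogenesis genes (-0.10 and -0.01). It was lower where more genes were expressed in a cell, with r of -0.52 in young and -0.29 in old cells, and had an r of 0.23 and 0.20 with the log10 of counted reads. All of these are parts of 1 total in each cell, and no p-value was computed.

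The share was lower in the young cells with cell cycle genes than in those without. Of the cell cycle genes Cdk1, Cdc25c, Ccna2 and Ccnb1, 27 of 52 young and 13 of 62 old cells expressed at least 1. The 27 young cells had a median ribosomal protein share of 7.24% (4.94% to 11.2%) and the other 25 young cells 9.05% (5.62% to 13.5%), 1.81 percentage points apart. These 27 cells also tended to express more genes than the other 25, and the share was lower where more genes were expressed (r -0.52 over young cells). What part this plays in the gap was not tested. In old cells the medians were 8.43% (5.10% to 9.19%) in the 13 cells and 8.25% (4.58% to 12.2%) in the other 49. The sign of this small difference turned over all old cells, passed or not (-0.17 percentage points), by the criteria of Kowalczyk et al. (-0.10) and in cells with at least 1000000 counted reads (-0.44). Where at least 2 of the 4 genes were required, 3 old cells remained and their median was 2.36 percentage points below that of the other old cells. Within each age the ranges of the cells with and without these genes overlapped, and whether the ages differ in this respect was not tested.

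**Figure D2:**
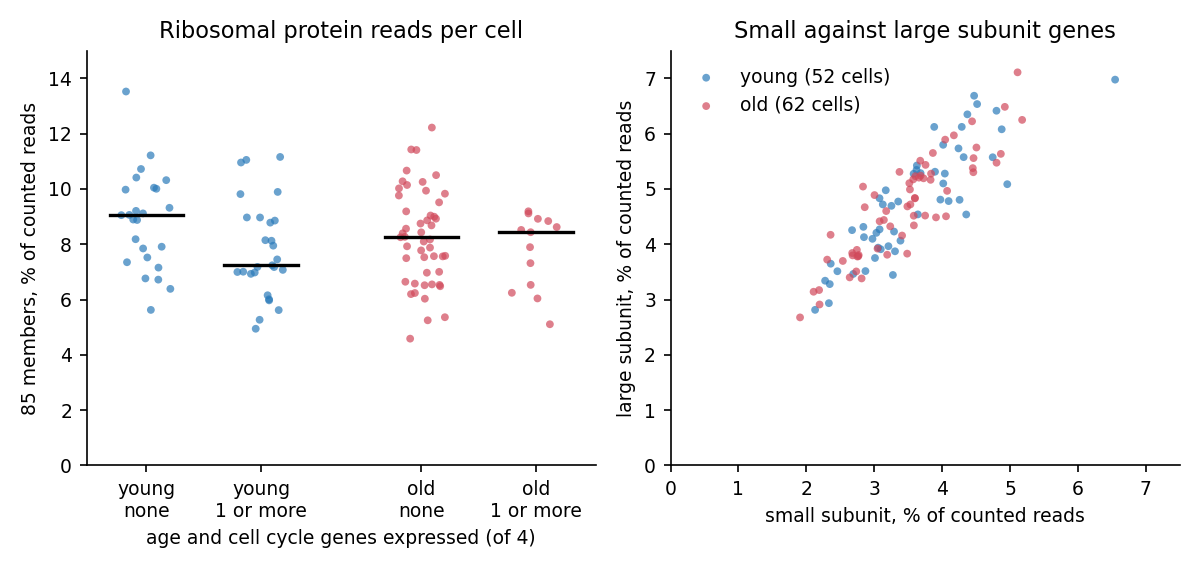
Left, share of counted reads on the 85 genes in each cell (%), by age and by whether none or at least 1 of 4 cell cycle genes was expressed, with the median as a black line; right, share on the 51 large against that on the 34 small subunit genes in each cell (%). The medians are 9.05% and 7.24% in young and 8.25% and 8.43% in old cells, and the points of both ages lie along 1 band on the right.

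Between the ages, the family as a whole was read at nearly the same level. The median of the 85 differences, old minus young in mean log2(CPM + 1), was -0.05 (0.01 with the TMMwsp scaling factors of edgeR), beside -0.02 for all 15014 genes with a count (-0.01 with these factors), and it was 0.00 for the 31 core small and -0.07 for the 46 core large subunit genes. The levels of the 85 genes in young and old cells had a Pearson r of 0.995 and a Spearman rho of 0.98 across genes, which are not independent replicates. All 85 differences were smaller than the SD of the gene over the young cells, and 57 were under 0.25 in size.

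At a limit of 1.5-fold (0.58 on the log2 scale), 2 of the 85 genes stood higher in old cells and 4 stood lower (1 and 3 with TMMwsp factors, 1 and 4 with the poscounts factors of DESeq2). The background over every gene with a count was 9.58% higher and 12.3% lower. Among the 170 genes counted at least as highly as the lowest quartile of the family, 64 of them ribosomal protein genes, 12.4% were higher and 8.82% lower. In the 106 of these that are not ribosomal protein genes 18.9% were higher and 14.2% lower. Over all 85 genes of the family, including those counted below that quartile, the shares were 2.35% and 4.71%. Of the genes past the limit, only Rpl3 reached the quartile, a mean level of 8.40. The others had mean levels of 8.27 (Rps15), 7.32 (Rpl22), 4.66 (Rps27l), 0.80 (Rps27) and 0.52 (Rps4l) over all cells used. The SD over cells had a median of 0.74 in young and 0.70 in old cells over the 85 genes, against 1.55 and 1.44 in those 106 genes.

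The 2 genes above the limit were Rpl3 and Rps27. Rpl3 had the highest level per length of the family in old cells (3913 CPM per kb, against 2590 in young cells). Its level was 11.61 ± 0.69 (SD, n = 52 cells) in young and 12.25 ± 0.61 (n = 62) in old cells, a difference of 0.64. Its lowest, median and highest values were 10.15, 11.58 and 13.18 in young and 10.63, 12.29 and 13.27 in old cells, and 51 of 62 old cells lay above the young median although the ranges overlapped. No single cell held more than 6.92% of its reads at either age. The difference lay between 0.60 and 0.72 under every setting of cells, scale, pseudocount and summary that was tried. Of the stretches of Rpl3 85.5% occurred in other genes. Adding pseudogene reads left its difference unchanged at 0.64, so these settings do not show how far reads of such copies enter its count.

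Rps27 rested on few cells. It was expressed in 6 of 52 young cells (11.5%, 95% exact Clopper-Pearson interval 4.35% to 23.4%) and in 15 of 62 old cells (24.2%, 14.2% to 36.7%), with medians of 0 at both ages and highest values of 5.61 and 6.60. Its summed count was 306 in young (95% exact Poisson interval 273 to 342) and 821 in old cells (766 to 879), of which 1 cell gave 35% and 18.4%. The intervals here and below cover counting error only. With 98.6% of its stretches shared with other genes, its count does not separate it from near-identical copies. The difference of 0.66 was inside the limit over all cells, passed or not (0.46), with TMMwsp (0.57) and poscounts factors (0.57) and in the cells without cell cycle genes (0.40).

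Among the 4 genes below the limit, Rpl22 was the core gene with the largest difference. RPL22 is an RNA-binding protein of the large subunit that is not required for translation, is needed for the development of alpha-beta T cells and is known to hold down its own paralog, Rpl22l1. Its level was 7.76 ± 1.57 (SD, n = 52 cells) in young and 6.94 ± 1.30 (n = 62) in old cells, a difference of -0.82. The lowest, median and highest levels were 3.90, 7.76 and 10.92 in young and 2.11, 6.94 and 9.60 in old cells, with 15 of 62 old cells above the young median. It was expressed in every young and every old cell used, and its summed count was 58925 reads in young (95% exact Poisson interval 58450 to 59403) and 22477 in old cells (22184 to 22773). The difference lay between -1.18 and -0.55 across settings, the last, inside the limit, being in cells by the criteria of Kowalczyk et al., and at -0.89 in the cells without cell cycle genes.

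Rpl22l1 differed by 0.03 between the ages over all cells used and by 0.43 in the cells without cell cycle genes. Its level was 6.90 ± 1.41 in young and 6.93 ± 1.29 in old cells, with lowest, median and highest values of 0.68, 7.18 and 8.53 and of 0, 7.18 and 9.02. Of the reads per kb of the pair, Rpl22l1 therefore took 58.9% in young and 77.5% in old cells, and it was above Rpl22 per kb in 41 of 52 young and 57 of 62 old cells. With coding lengths in place of transcript lengths the shares were 28.8% and 49.3%. Each length is the same at both ages, so this change cannot alter the direction between them and is no check of it. Across cells the 2 levels had an r of -0.14 in young (n = 52) and 0.39 in old cells (n = 62). Of the stretches of Rpl22l1 57% occurred in other genes, against 5.0% of those of Rpl22.

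Rps27l, a small subunit paralog induced by p53, had the largest difference of the family, -1.16, with a level of 5.29 ± 2.96 in young and 4.14 ± 2.94 in old cells. It was expressed in 41 of 52 young (78.8%, 65.3% to 88.9%) and 42 of 62 old cells (67.7%, 54.7% to 79.1%). The lowest, median and highest levels were 0, 6.56 and 9.22 in young and 0, 5.54 and 8.46 in old cells, so that the groups overlapped over almost all of the range. Its level also moved with the cell cycle genes, by 1.99 between the young cells with and without them and by 0.70 between the old cells. In the 25 young and 49 old cells without them the old minus young difference of Rps27l was -0.27 in place of -1.16. The part that cell cycle genes play in the larger value was not tested.

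Rps15, whose product lies near the decoding site of the small subunit, had a level of 8.60 ± 0.78 in young and 8.0 ± 0.93 in old cells. Its lowest, median and highest levels were 6.40, 8.77 and 10.72 in young and 5.54, 8.07 and 9.68 in old cells. Its difference of -0.60 was just past the limit, and Rpl35a (-0.57), Rpl10a (-0.55) and Rpl34 (-0.54) were just inside it. With other sets of cells Rps15 came as near to 0 as -0.32, inside the limit. Rps4l was expressed in 8 of 52 young cells and 1 of 62 old cells. That 1 cell held 99.3% of the 401 reads of Rps4l in old cells (95% exact Poisson interval 363 to 442), and in the cells without cell cycle genes its difference was 0.09.

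**Figure D3:**
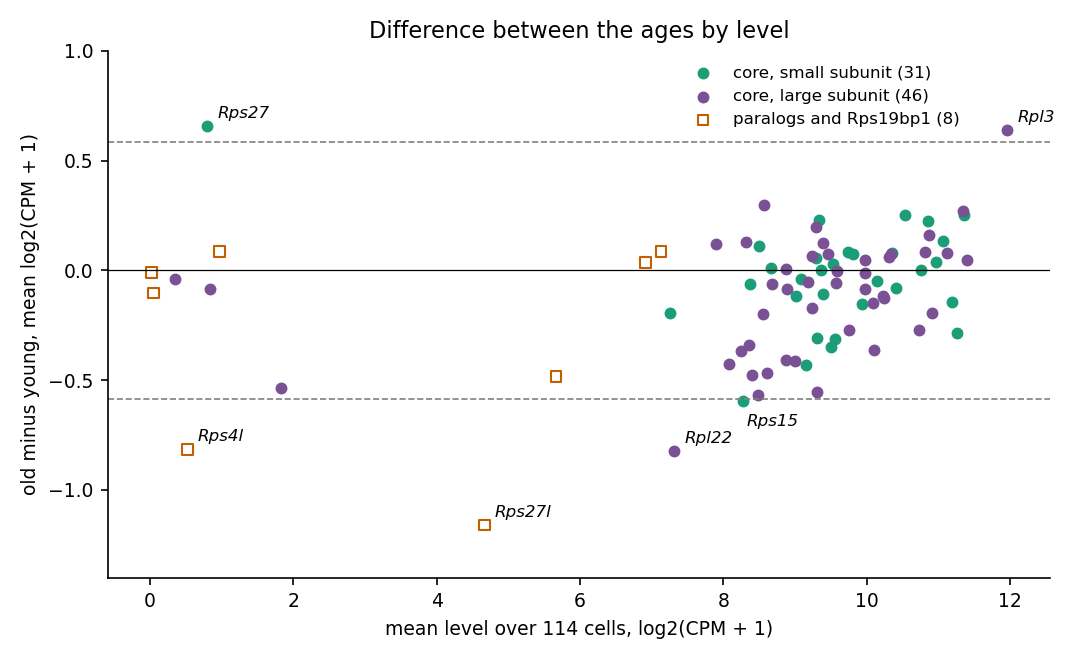
Old minus young difference in mean log2(CPM + 1) of each of the 85 genes against its mean level over all cells used, with dashed lines at the 1.5-fold limit. Rpl3 and Rps27 lie above the upper line and Rps27l, Rpl22, Rps4l and Rps15 below the lower, while the highly counted core genes gather around 0.

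**Figure D4:**
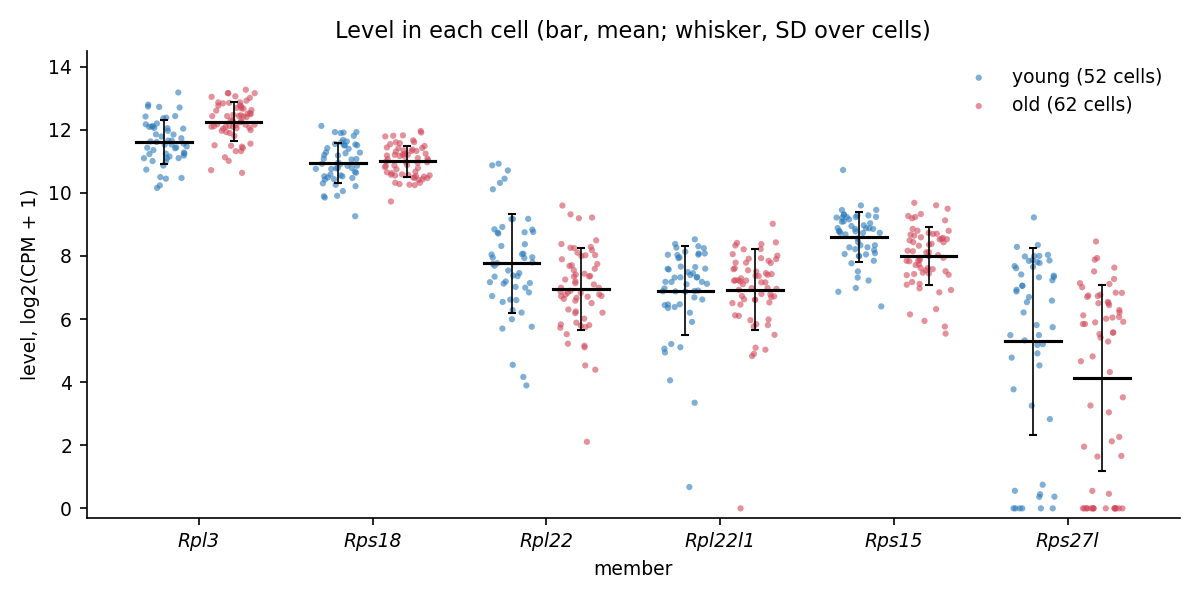
Level, log2(CPM + 1), of 6 genes in each young (blue) and old (red) cell, with the mean as a bar and the SD over cells as whiskers. Rpl3 is shifted up and Rpl22, Rps15 and Rps27l down in old cells with overlapping ranges, Rps18 and Rpl22l1 have like means at both ages, and Rps27l is at or near 0 in a group of cells of each age.

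Inside the limit, the genes next highest in old cells were Rpl36a (0.30), Rplp0 (0.27), Rps6 (0.25), Rps9 (0.25), Rps13 (0.23) and Rps14 (0.22), and the next lowest after those named were Rpl36al (-0.48), Rpl31 (-0.48) and Rpl27a (-0.47). The proteins of the stalk, which recruits the translation factors that hydrolyse GTP, did not share a direction, which held under each scaling tried, with Rplp0 at 0.27, Rplp1 at -0.17 and Rplp2 at -0.34. In the cells without cell cycle genes (25 young, 49 old), the median of the 85 differences was -0.07, with Rpl3 and Rps19bp1 past the limit upwards and 6 genes downwards, namely Rpl22 (-0.89), Rpl10a (-0.80), Rps15 (-0.76), Rpl35a (-0.71), Rpl27a (-0.68) and Rpl34 (-0.65).

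The 4 X-linked genes were examined because the cells of the mice differed in Xist and Y-linked genes, so that age and sex cannot be told apart. Rpl36a differed by 0.30 (8.40 ± 0.87 to 8.70 ± 0.75), Rps4x by -0.08 (10.45 ± 0.77 to 10.37 ± 0.76), Rpl10 by -0.27 (9.91 ± 0.90 to 9.64 ± 0.85) and Rpl39 by -0.37 (8.44 ± 0.67 to 8.07 ± 0.85). None was past the limit, and their median was -0.18 against -0.05 for the 81 autosomal genes.

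The other paralogs, except Rps27l, were minor to their partners. Of the reads per kb of each pair, Rpl36al took 19.9% in young and 14.3% in old cells, Rpl7l1, which is known as a ribosome assembly factor, 3.33% and 4.57%, and Rps4l 0.684% and 0.202%. Rpl3l had reads in 1 of 52 young cells, which held all 89 of them, and none in the old cells, and Rpl39l stayed under 0.01% of its pair. Rps27l took 97.5% and 86.8% of its pair, in which Rps27 was the gene with few reads. The paralogs Rpl10l and Rps27rt were not analysed here.

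Of the 19 genes of the family linked to Diamond-Blackfan anaemia, Rps27 was past the limit upwards and none downwards, with a median difference of -0.01. Among them Rps19 differed by 0.13, Rpl5 by -0.19 and Rpl11 by -0.09, the last 2 encoding the proteins that bind MDM2 when ribosome assembly fails. Of the 33 ribosomal proteins conserved in all domains of life, 1 was higher (Rpl3) and 1 lower (Rps15), with a median of 0.00. Of genes for ribosomal proteins under other symbols, Fau differed by 0.12 and Gnb2l1 by -0.06.

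Lists of genes around the ribosome were read against the same background of 9.58% higher and 12.3% lower, and no difference from it was tested. It is not matched for level, with a median young level of 1.08 against 8.48 for the other TOP transcripts and 2.84 for the biogenesis genes. Among the 106 highly counted genes outside the family 18.9% were higher and 14.2% lower. Of 16 other TOP transcripts none was higher and 4 (25.0%) were lower by the limit, with a median of -0.19. They were the elongation factor subunit Eef1d (-1.32), the initiation factor subunit Eif3f (-0.96), the nucleolar chaperone Npm1 (-0.78) and the histone chaperone Nap1l1 (-0.63). Of 41 ribosome biogenesis genes 4 were higher (9.76%, near the background) and 11 lower (26.8%), with a median of -0.13. Among these the RNA polymerase I subunits Polr1a (-1.33) and Polr1c (-1.29) and the nucleolar factor Tcof1 (-1.23) were lower and Nmd3, the export adaptor of the large subunit, was higher (1.34).

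Of 16 genes of mTORC1 and Myc control 5 were higher (31.2%) and 4 lower (25.0%), with a median of 0.06. Rptor (-0.96), the mTORC1 scaffold, was lower and Larp1 (0.94), which binds TOP tracts, and Mlst8 (1.08), a further mTORC1 subunit, were higher, whereas Myc differed by 0.56. Of the 77 mitochondrial ribosomal protein genes 6 were higher (7.79%) and 13 lower (16.9%), both near the background, with a median of -0.10. The SD over cells had a median of 3.05 in young and 2.88 in old cells for the biogenesis genes, about as large as their median levels of 2.84 and 2.81. For the genes of mTORC1 and Myc control it was 2.60 at both ages, above their median levels of 1.66 and 1.61. None of these 16 genes was expressed in at least 90% of cells. For the mitochondrial ribosomal protein genes it was 2.82 and 2.84, beside median levels of 2.44 and 2.26.

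The correlation between ribosomal protein genes from cell to cell was positive for most pairs. Among the 75 genes that at least 90% of cells expressed, the 2775 pairs had a median Pearson r of 0.18 in young and 0.23 in old cells, and 83.7% and 91.6% of pairs lay above 0. The 106 other genes counted as highly had a median r of 0.01 at both ages, and pairs of a ribosomal protein gene with one of them -0.02 and 0.02. Pairs within the small subunit had a median r of 0.23 and 0.28, and pairs within the large subunit 0.16 and 0.20. The closest pair in old cells was Rps19 and Rps28 (0.66).

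The size of these correlations depended on the scaling. With factors that edgeR's TMMwsp method gave for each cell in place of total counts, the median r was 0.62 and 0.61 in the family, 0.11 and 0.12 in the 106 other genes and 0.23 and 0.25 between them. These factors had an r of -0.50 in young and -0.34 in old cells with the share of ribosomal protein reads. The order, with the family above the other genes, was the same under both scalings and with the poscounts factors of DESeq2.

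Single genes stood apart within this pattern. Rps29 in young (median r with the other genes 0.35) and Rps28 in old cells (0.39) followed the family most closely. Rpl7l1 was the lowest at both ages, with a median r of -0.12 and -0.09. Rpl22l1 had a median r of -0.04 in young and 0.17 in old cells, Rps2 -0.02 and 0.07, and Rpl4 0.09 and -0.01. The core genes Rpl9 (0.01 and 0.19) and Rpl13 (0.04 and 0.26) were also near 0 in young cells. Rpl22 had a median r of 0.16 and 0.19, close to the median of the family.

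**Figure D5:**
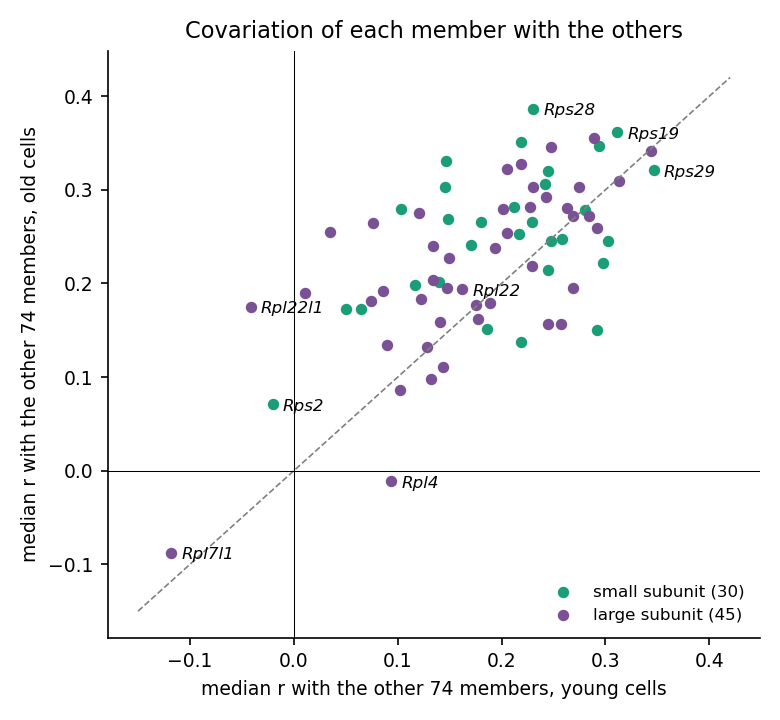
Median Pearson r of each of the 75 genes with the other genes in old cells (vertical) against young cells (horizontal), small subunit genes in green and large subunit genes in purple, with a dashed line of equality. Most genes lie between 0.1 and 0.4 on both axes, Rpl7l1 lies below 0 on both, and Rps2, Rpl22l1, Rpl4, Rpl9 and Rpl13 are among those near 0 on at least 1 axis.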

How the data were processed

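The authors mapped single 51-base reads to mm10 with TopHat2 2.0.10 and RefSeq gene models, keeping 1 alignment per read, and counted them on RefSeq genes with rpkmforgenes; the deposited values are these read counts per gene and cell, without normalization, and no source says whether strand was used. Cells that passed the criteria the study used (52 young, 62 old) were taken from its table of cell quality. All 15181 entries name genes, and 8 had no read in any of the 135 cells. The reads carry no molecular identifiers.

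From the counts, CPM was computed over the total of each cell, a level as the mean of log2(CPM + 1) over cells with a pseudocount of 1 CPM, and a difference as old minus young. Each age is 1 mouse, so no test was made, and differences past 1.5-fold are called higher or lower. Lengths are those of RefSeq-linked transcripts of GENCODE M21, in which all 85 genes were found. Shares of cells have 95% exact Clopper-Pearson and summed counts 95% exact Poisson intervals. The genes named were the 8 highest and 8 lowest per length, the 8 largest rises and 8 largest falls where at least 10% of cells expressed the gene, all past the limit, the extremes of median r, all X-linked genes and paralogs, and at most 4 of each list.

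The genes and lists were chosen with earlier results of these data known. Of the steps, only the sign of the old minus young difference was tested on simulated counts, with changes larger than the 1.5-fold limit. Alternatives changed the cells, scaling factors (edgeR 4.0.16, DESeq2 1.42.0), pseudocount, summary, depth (thinning to 250000 reads), pseudogene reads and limits. Python 3.11.15, numpy 2.4.6, pandas 2.3.3, scipy 1.17.1 and R 4.3.3 were used. Values of some single genes are not reported here.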

Additional observations from a re-analysis of the deposited data

How the results depend on the processing

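No replicate could be left out, because each age is 1 mouse, and no paired analysis was possible because the cells of the ages carry no shared replicate. The median difference of the 85 genes stayed between -0.10 and 0.01, and it was above 0 with TMMwsp factors alone, under which 45 of 85 genes were higher and 40 lower, against 36 and 49 with total counts. The share of ribosomal protein reads stayed between 7.95% and 8.78% in young and between 8.21% and 8.33% in old cells. Of 245 recomputed values that answer a comparison, 227 kept their size within the tolerance set for their kind (1.5 times for counts and shares, 0.58 for log2 differences, 0.1 for r and 1 percentage point for the cell cycle comparison). The tolerance for log2 differences was wider than the median differences of the family, its subunits and the lists, which could hardly leave it. A change of sign within it counted as kept, as for the small subunit (-0.02 with total counts, 0.04 with TMMwsp factors). The number of genes higher in old cells was 1 over all cells, passed or not, 1 in cells by the criteria of Kowalczyk et al., 1 with TMMwsp and 1 with poscounts factors, and 0 at 2-fold. The number lower was 2 by the criteria of Kowalczyk et al., 8 from summed counts, 1 at 2-fold, 18 at the lower limit tried and 2 among the core genes. The median r was 0.62 in young and 0.61 in old cells with TMMwsp and 0.58 and 0.60 with poscounts factors. The difference by cell cycle genes in old cells was -2.36 percentage points with at least 2 of the 4 genes (3 cells). With coding lengths, chosen after seeing the data, the share of Rpl22l1 was 28.8% and 49.3%, and the young share of Rps4l was 2.07% over all cells, passed or not. In cells without cell cycle genes, also added later, the difference of Rps4l was 0.0936. The cause of these changes was not tested, apart from the changed limits and gene sets. In single genes, Rps27 had a difference of 1.63 from summed counts and 2.00 from mean CPM but 0.46 over all cells, 0.49 by the criteria of Kowalczyk et al. and 0.40 without cell cycle genes, inside the limit, and for genes expressed in few cells such values rest on those cells.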
